A study of Mus with 9 samples.

Results

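The nuclear genes for the subunits of respiratory complexes I to V were taken from the deposited kidney table as the protein-coding genes whose symbols begin with Nduf and then a, b, c, f, s or v, with Uqcr, with Cox4 to Cox8, or with Atp5, together with Sdha, Sdhb, Sdhc, Sdhd and Cyc1. The choice rested on symbols and annotation and used no measured value, but it was made with earlier results of these data known. It gave 95 of the 54532 genes in the table, which holds 22046 protein-coding genes. Of these, 36 belonged to complex I, 4 to complex II, 9 to complex III, 18 to complex IV and 17 to complex V, which makes 84 subunits. Ndufa4 was counted with complex IV. The same symbols took in 8 assembly factors of complex I (the Ndufaf genes) and 3 related genes (Ndufa4l2, Cox7a2l and Atp5s), which were kept apart from the subunits. The symbol Atp5o stood for 2 of the 95 genes.

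Complex I takes electrons from NADH and complex II takes them from succinate, both pass them to ubiquinone, complex III hands them on to cytochrome c, and complex IV delivers them to oxygen. The protons pumped along the way drive complex V, the ATP synthase. Except for complex II, each complex joins nuclear subunits to a few that mitochondrial DNA encodes, with a catalytic core that carries the flavins, iron-sulfur clusters, haems and copper and a shell of accessory subunits that help to build and hold it. In the kidney the proximal tubule relies on this chain to power the reabsorption of solutes.

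RNA was sequenced from kidneys of male C57BL/6 mice in groups named 18 mo, 21 mo and 21 mo/O304, with 3 mice in each. All had lost a kidney by surgery at 18 months of age. The 18 mo mice were killed 1 week later without injections, the 21 mo mice had daily intraperitoneal saline for 12 weeks, and the 21 mo/O304 mice had O304, an activator of the energy sensor AMPK, at 10 mg/kg/day by the same route for 12 weeks. The 21 mo and 21 mo/O304 mice thus differed by the drug, whereas age, time since surgery and the injections cannot be told apart in comparisons with the 18 mo mice.

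Counts on genes came to 15636378 to 18396725 per library. Counts scaled to library totals with TMM factors (CPM) are used here for single genes and FPKM, which also divides by gene length, for comparisons between genes. A relative log2 value is the log2 CPM of a library minus the mean of the 18 mo libraries. Fold changes and adjusted p-values come from edgeR's quasi-likelihood test on the counts of all 9 libraries, where 15902 genes passed the filter on low counts, and ± follows a log2 fold change with its standard error and a mean with its SD (n = 3). The 21 mo mice stood apart from each other. The 12 proximal tubule markers, none of which was at 0 in every library, summed to 36784 to 45289 CPM in the 18 mo mice, 2387 to 36124 CPM in the 21 mo mice and 41702 to 47526 CPM in the 21 mo/O304 mice, with the low values in replicates 2 and 3 of the 21 mo group. The 7 tubule injury genes summed to 673 to 796, 1328 to 14309 and 702 to 1061 CPM and the 8 macrophage genes to 225 to 337, 454 to 1519 and 346 to 359 CPM in the same groups, again with no gene at 0 throughout. In whole kidney, fewer cells of a type and less RNA per cell cannot be told apart.

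Among the 91 members that passed the filter on low counts, the level per length differed by orders of magnitude between genes. In the 18 mo mice the median FPKM was 107.8 over the 36 subunits of complex I, 192 over the 4 of complex II, 221 over the 9 of complex III, 236 over 15 of complex IV and 155 over 16 of complex V. Cox6a1, the form of the small subunit VIa found in most tissues, had the highest FPKM, at 1259 ± 64.2, followed by Cox8a at 1194 ± 86.9. Next came the catalytic pair of the ATP synthase, Atp5b at 746 ± 34.8 and Atp5a1 at 717 ± 34.3. The lowest in complex I was Ndufb2, at 2.73 ± 0.461 FPKM. Its annotated length of 5628 bases enters that value, and it overlaps 3 other annotated genes. The 4 members that were not tested were Cox8c and the second Atp5o entry with no count in any library, Cox7b2 with 1 count in 1 library, and Cox8b with 0 to 11 counts. Cox8b is the heart and skeletal muscle form of subunit VIII, and its 11 counts fell in replicate 1 of the 21 mo/O304 group. Of the tested members, 39 overlap another annotated gene, 27 of them on the other strand only. Their reads are uncertain, since the use of strand in counting is not given in the sources used here. The same holds for reads that also match processed pseudogenes, which many respiratory genes have.

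The first comparison asked how the respiratory chain differed between the 21 mo and 18 mo mice. Transcripts for the subunits of all 5 complexes were lower on average at 21 mo. The log2 fold change was below 0 for 87 of the 91 tested members, and its median was -0.50, beside 0.034 over all tested genes. The summed level of the 84 subunits was 26914 ± 1396 CPM in the 18 mo mice and 18324 ± 5218 CPM in the 21 mo mice. No member passed an adjusted p of 0.05 in edgeR's test, where 0.0189% of all tested genes did, and the smallest adjusted p was 0.063. DESeq2 called 37 members at the same threshold, all lower, among 2262 genes in all, and limma voom with sample quality weights called 80, of which 79 were lower, among 8409 in all. At an unadjusted p under 0.05 in edgeR's test, 48 members were lower and 1 was higher, beside 12% and 14% of all tested genes. For 48 members every 21 mo mouse lay below every 18 mo mouse, which was so for 15.3% of all tested genes.

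The mice of the 21 mo group did not contribute equally. Over the 80 tested subunits the mean relative log2 stood at -0.25, -0.68 and -0.88 in the 21 mo mice, from replicate 1 to 3, against 0.045, 0.025 and -0.069 in the 18 mo mice. Replicate 3 was the lowest of the 21 mo mice for 62 of the 80 subunits and replicate 1 the highest for 74. In replicates 2 and 3, 83 and 86 of the 91 members were below the lowest 18 mo mouse. In replicate 1 there were 50. Of the 15902 tested genes, 5314, 5748 and 6436 were below in replicates 1 to 3. Several marker lists moved in the same mice, while others had a different order. The mean relative log2 of the proximal tubule list was 0.016, -1.13 and -3.24, that of 7 tubule injury genes 0.85, 4.34 and 4.57 and that of 8 macrophage genes 0.85, 1.15 and 2.65 in the same order. Means below 0 in replicates 2 and 3 were also found outside the proximal tubule list, though not in every gene. Lists of 8 thick limb and distal tubule genes and 6 endothelial genes had 0.22, -0.68 and -1.80 and 0.014, -0.54 and -0.79. At 21 mo 11 of 12 proximal tubule and 6 of 6 endothelial genes had a log2 fold change below 0. Of the 8 thick limb and distal tubule genes 4 were below 0 and 4 above, with a median of -0.083. Their sum in replicate 2, 6884 CPM, lay inside the 18 mo range of 4909 to 9453 CPM. For 8 collecting duct genes the mean relative log2 was -0.47, -0.13 and -0.85, and for 7 fibroblast genes -0.55, 1.40 and 2.58. In the same order, 3 tested neutrophil genes had 3.01, 0.48 and 2.47, highest in replicate 1. For 5 podocyte genes the values were -0.044, -0.091 and 1.69, and for 7 tested lymphocyte genes 0.45, -0.28 and 1.19. The part of these lists in the subunits' values was not tested. Without replicate 1 of the 21 mo group, 64 members passed the adjusted p of 0.05 in edgeR's test, 63 of them lower, among 4186 genes in all. Without replicate 3 only Uqcr11 did, with an adjusted p of 0.0481.

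**Figure D1:**
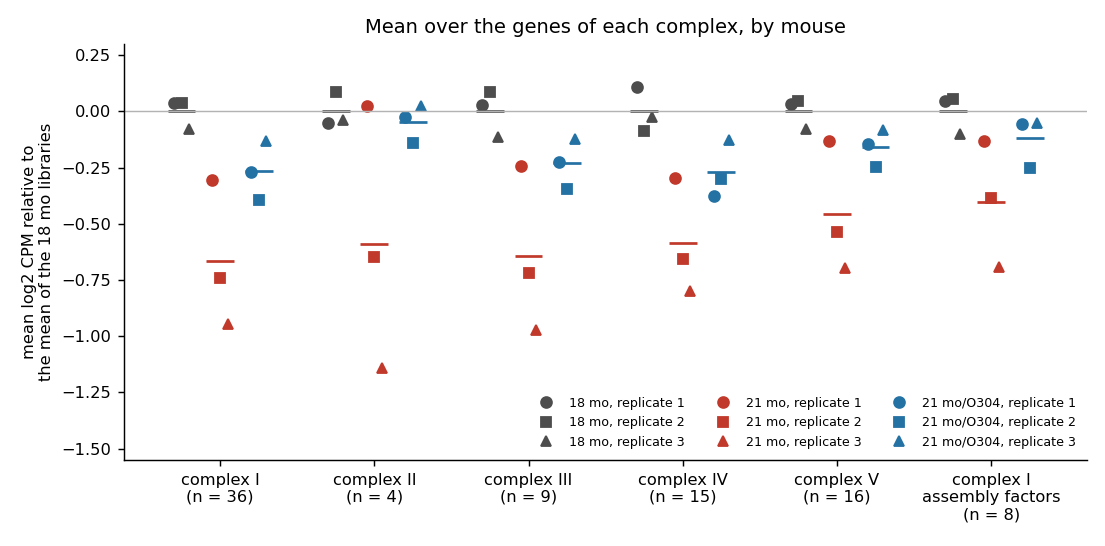
Mean relative log2 CPM (vertical axis, log2 units, 0 is the mean of the 18 mo libraries) over the tested genes of each complex and of the complex I assembly factors, by mouse; points are mice, with a shape for each replicate number, and short lines are group means. Replicates 2 and 3 of the 21 mo group lie lowest for each of the 5 complexes, while replicate 1 of that group lies at about the level of the 21 mo/O304 mice, with complex II at 0.024.

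The median log2 fold change at 21 mo was -0.60 for complex I, -0.52 for complex II, -0.54 for complex III, -0.46 for complex IV and -0.39 for complex V. At an unadjusted p under 0.05 in edgeR's test, 25 of 36 subunits were lower in complex I, 1 of 4 in complex II, 5 of 9 in complex III, 7 of 15 in complex IV and 6 of 16 in complex V. Over all tested genes 12% were lower. Each complex kept a median below 0 under every alternative tried and without each library in turn. In replicate 1 of the 21 mo group the mean relative log2 ran from -0.31 for complex I to 0.024 for complex II. In replicate 3 complex II was the lowest of the 5 at -1.14, with complex I at -0.94 and complex V, the highest, at -0.69. Differences between complexes were not tested.

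**Figure D2:**
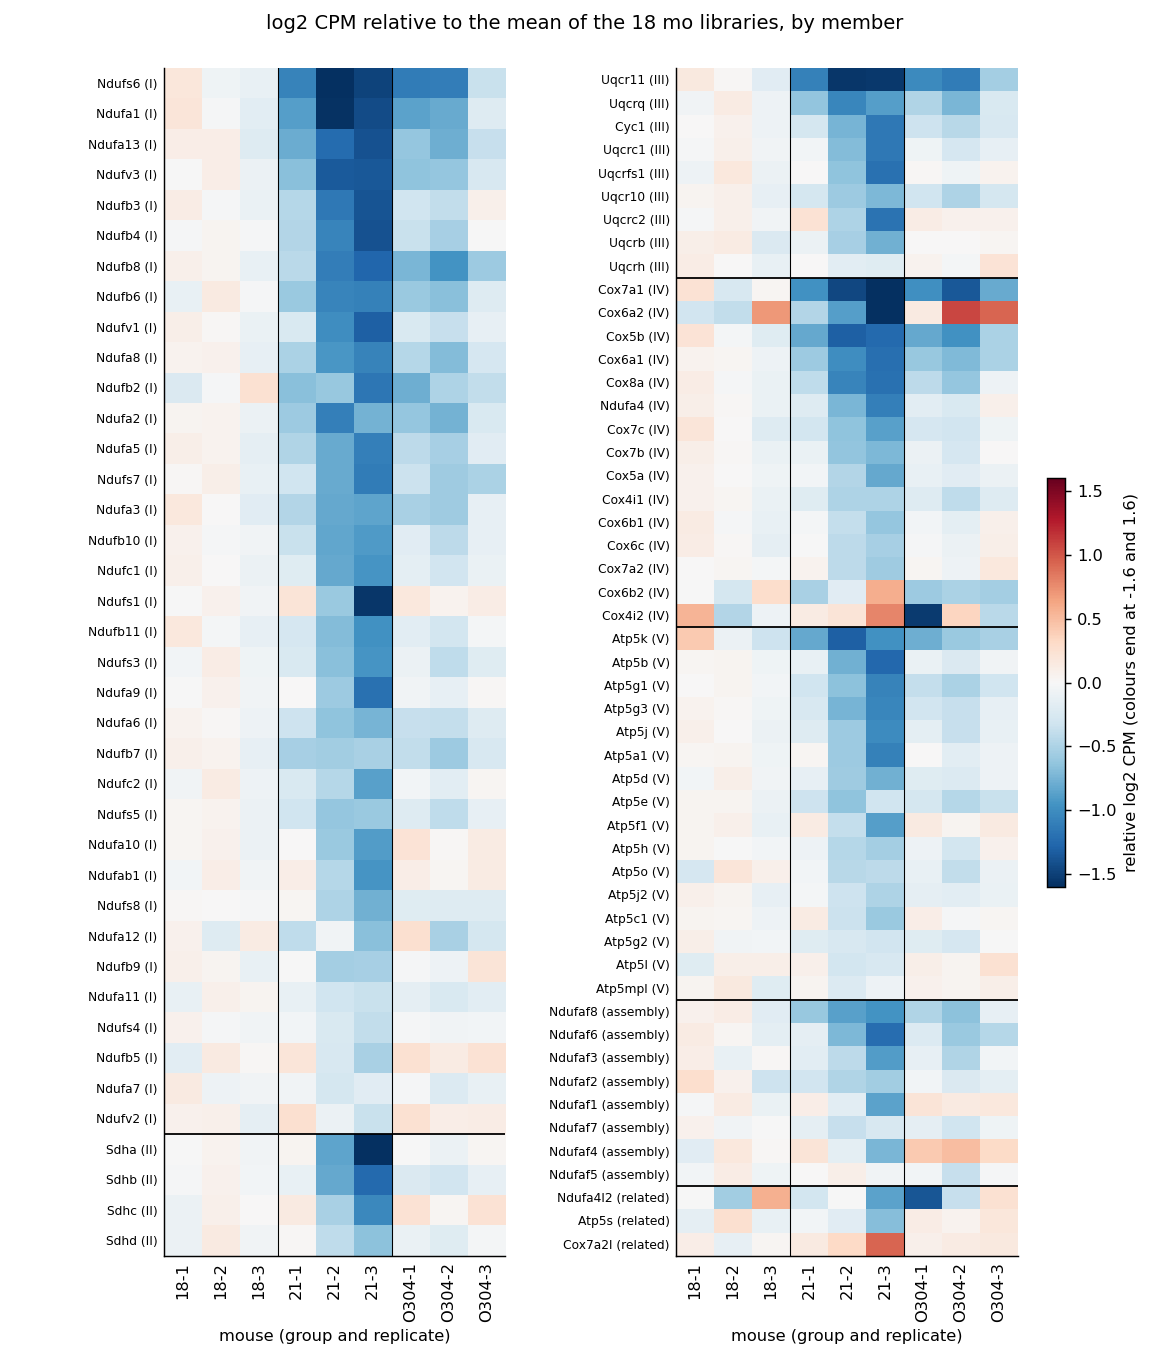
Relative log2 CPM of the tested members, with 1 of the 91 not shown (rows, with the complex in parentheses) in each of the 9 mice (columns), ordered within a complex by the mean of the 21 mo mice; blue is below and red above the mean of the 18 mo mice, and colours end at -1.6 and 1.6. Ndufs6, Uqcr11, Cox7a1 and Atp5k are blue in all 3 21 mo mice and in the 21 mo/O304 mice, whereas Sdha, Ndufs1 and Uqcrc2 are blue in replicates 2 and 3 of the 21 mo group and near white or pale red elsewhere.

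In complex I all 36 subunits had a log2 fold change below 0 at 21 mo. Of these, 25 had an unadjusted p under 0.05 in edgeR's test, beside 12% of all tested genes that were lower. The lowest was that of Ndufs6 (chr13:73319838-73328542, minus strand, GRCm38), an accessory subunit of the matrix arm that binds zinc. Its CPM was 153, 129.6 and 125 in the 18 mo mice, 64.4, 43.2 and 48.3 in the 21 mo mice and 62.2, 62.7 and 106 in the 21 mo/O304 mice. All 3 21 mo mice lay far below the 18 mo range, replicate 1 included, and 2 of the 21 mo/O304 mice lay with them. On the other strand the gene overlaps Mrpl36. The log2 fold change at 21 mo was -1.39 ± 0.24, with an adjusted p of 0.0626 in edgeR's test. Ndufa13 (chr8:69894180-69902558, minus strand), a small membrane-bound subunit also known as GRIM-19, had 240.2, 241 and 193 CPM at 18 mo and 129, 95.1 and 84.8 CPM at 21 mo, again with no overlap, and a log2 fold change of -1.13 ± 0.19. It overlaps 2 other annotated genes, so its counts are uncertain. Ndufa1 and Ndufv3, chosen after their values were seen, had log2 fold changes of -1.27 ± 0.24 and -1.09 ± 0.21.

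The 7 nuclear core subunits of complex I, among them those that carry the flavin and the iron-sulfur clusters, spread over a wide range. Ndufv1, the flavoprotein that accepts electrons from NADH, had 388, 370.1 and 338 CPM at 18 mo and 308, 183 and 147 CPM at 21 mo, and the groups did not overlap. Its log2 fold change was -0.78 ± 0.26. Ndufs7, which holds the last cluster before ubiquinone, had -0.72 ± 0.20 and Ndufs3 had -0.59 ± 0.19. Ndufs1 (chr1:63143596-63176833, minus strand), the largest subunit, was at 252, 266 and 244 CPM at 18 mo and at 293, 168 and 86.1 CPM at 21 mo. Its level in replicate 1 of the 21 mo group was above every 18 mo mouse and its level in replicate 3 was the lowest of all 9, so that the log2 fold change of -0.48 ± 0.35 had an adjusted p of 0.408. Ndufs8 had -0.37 ± 0.19. Ndufv2, the partner of Ndufv1, was at 207 ± 17.7 CPM at 18 mo and 200.3 ± 42.9 CPM at 21 mo, the smallest difference in the complex at -0.047 ± 0.17, and its sign turned without replicate 3 of the 21 mo group and once gene length was modelled. The 16 subunits of the matrix arm had a median of -0.56 and the 19 of the membrane arm -0.68. At an unadjusted p under 0.05 in edgeR's test 9 and 16 were lower, beside 12% of all tested genes. Ndufa2, which had the highest mean FPKM of the complex over all 9 mice, had a log2 fold change of -0.80 ± 0.18.

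Complex II, also an enzyme of the citric acid cycle and the only complex made by nuclear genes alone, varied most among the 21 mo mice. Sdha (chr13:74322254-74350280, minus strand), the flavoprotein that oxidises succinate, had 864, 908 and 838 CPM in the 18 mo mice, 899, 484 and 278 CPM in the 21 mo mice and 866, 813 and 891 CPM in the 21 mo/O304 mice. Replicate 1 of the 21 mo group was inside the range of the 18 mo mice, and replicates 2 and 3 were far below it. The log2 fold change at 21 mo was -0.65 ± 0.36, with an adjusted p of 0.280 in edgeR's test. Sdhb, the iron-sulfur subunit, had 407, 431 and 399 CPM at 18 mo and 380.3, 233 and 174 CPM at 21 mo. It was the only subunit of the complex whose groups did not overlap, and its log2 fold change was -0.65 ± 0.26. The membrane anchors Sdhc and Sdhd had log2 fold changes of -0.39 ± 0.27 and -0.33 ± 0.19.

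In complex III the smallest subunit had the lowest fold change. Uqcr11 (chr10:80402997-80406830, minus strand), an accessory protein at the edge of the complex, had 294, 268 and 234 CPM in the 18 mo mice, 125, 89.5 and 90.6 CPM in the 21 mo mice and 130.1, 121 and 182 CPM in the 21 mo/O304 mice. Every 21 mo and every 21 mo/O304 mouse lay below the 18 mo range. At 21 mo its log2 fold change of -1.38 ± 0.21 had the smallest p of all members, 9.18e-05 before and 0.0626 after adjustment in edgeR's test. Of the subunits that carry electrons, Cyc1, which holds the haem of cytochrome c1, had 494, 517 and 463 CPM at 18 mo and 403, 293 and 223 CPM at 21 mo with no overlap, and a log2 fold change of -0.68 ± 0.22. Uqcrfs1, the Rieske iron-sulfur protein, had -0.54 ± 0.28. The core proteins Uqcrc1 and Uqcrc2, which face the matrix, had -0.56 ± 0.26 and -0.37 ± 0.30, and both were in or above the 18 mo range in replicate 1 of the 21 mo group. Uqcr10 had -0.52 ± 0.16. Uqcrh, the hinge protein beside cytochrome c1, was closest to 0 at -0.12 ± 0.15, a value that turned positive once gene length was modelled.

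Complex IV held both the widest spread and the tissue-restricted isoforms. Cox5b (chr1:36691449-36693681, plus strand), a zinc-binding subunit on the matrix side, had 396, 334 and 297 CPM at 18 mo, 193, 138 and 143 CPM at 21 mo and 193, 173 and 239.6 CPM with O304. The 21 mo mice were all below the 18 mo mice, with a log2 fold change of -1.12 ± 0.20 and an adjusted p of 0.0626 in edgeR's test. Its matrix neighbour Cox5a had 197, 189 and 180.2 CPM and 183, 136 and 107 CPM in the first 2 groups. Here replicate 1 was inside the 18 mo range, and the log2 fold change was -0.41 ± 0.19. Cox4i1, the regulatory subunit that binds ATP, had 1048, 1024 and 931 CPM at 18 mo and 874, 711 and 712 CPM at 21 mo, a log2 fold change of -0.39 ± 0.19. The log2 fold change was -0.91 ± 0.20 for Cox6a1, -0.84 ± 0.25 for Cox8a, -0.63 ± 0.24 for Ndufa4, -0.46 ± 0.19 for Cox7b, -0.32 ± 0.18 for Cox6b1 and -0.29 ± 0.18 for Cox7a2. Of these, Cox6a1, Cox8a and Ndufa4 had no overlap between the groups.

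Among the isoforms of restricted expression, Cox7a1, the heart and muscle form of subunit VIIa, stood out. It had 15.6, 11.1 and 13.5 CPM in the 18 mo mice, 6.76, 4.77 and 3.76 CPM in the 21 mo mice and 6.69, 5.13 and 7.51 CPM in the 21 mo/O304 mice. Both later groups lay wholly below the first. The log2 fold change at 21 mo was -1.40 ± 0.27, the lowest of all members, with an adjusted p of 0.0626 in edgeR's test. Per length, Cox7a1 made up 8.80% ± 1.42 of the summed FPKM of Cox7a1 and Cox7a2, its form in other tissues, in the 18 mo mice. The share was 4.25% ± 0.341 in the 21 mo mice and 4.28% ± 0.463 in the 21 mo/O304 mice, and the 18 mo mice did not overlap with the others. The muscle form Cox6a2 was near the limit of detection at 0.991, 0.924 and 2.09 CPM at 18 mo and 0.870, 0.625 and 0.183 CPM at 21 mo. In the lung-enriched Cox4i2 the log2 fold change was 0.39 ± 0.58, from 0.762 ± 0.319 CPM and 0.995 ± 0.290 CPM. The testis form Cox6b2 had 5.78 ± 1.14 CPM and 5.84 ± 2.42 CPM.

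Of the 5 complexes, complex V had the median closest to 0. Atp5k (chr5:108433244-108434448, minus strand), the e subunit of the membrane sector that takes part in joining ATP synthase into dimers, had the lowest fold change in it. It had 156, 110.2 and 93.2 CPM in the 18 mo mice, 66.4, 47.3 and 59.9 CPM in the 21 mo mice and 68.3, 77.7 and 81.4 CPM in the 21 mo/O304 mice, each group wholly below the 18 mo mice. At 21 mo the log2 fold change was -1.05 ± 0.21, with an adjusted p of 0.0626 in edgeR's test. The catalytic subunit Atp5b had 3331, 3350.2 and 3093 CPM at 18 mo and 2991, 1909.8 and 1365 CPM at 21 mo, and its log2 fold change was -0.64 ± 0.32. Atp5a1, which alternates with it in the head, had 2356, 2392 and 2200.1 CPM and 2368, 1548 and 1092 CPM, so that replicate 1 of the 21 mo group was at the 18 mo level. Its log2 fold change was -0.47 ± 0.31, and that of Atp5c1, the central stalk, -0.24 ± 0.20. Atp5e, Atp5l and Atp5mpl had log2 fold changes of -0.43 ± 0.15, -0.15 ± 0.16 and -0.093 ± 0.14, the last of which turned positive once gene length was modelled.

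**Figure D3:**
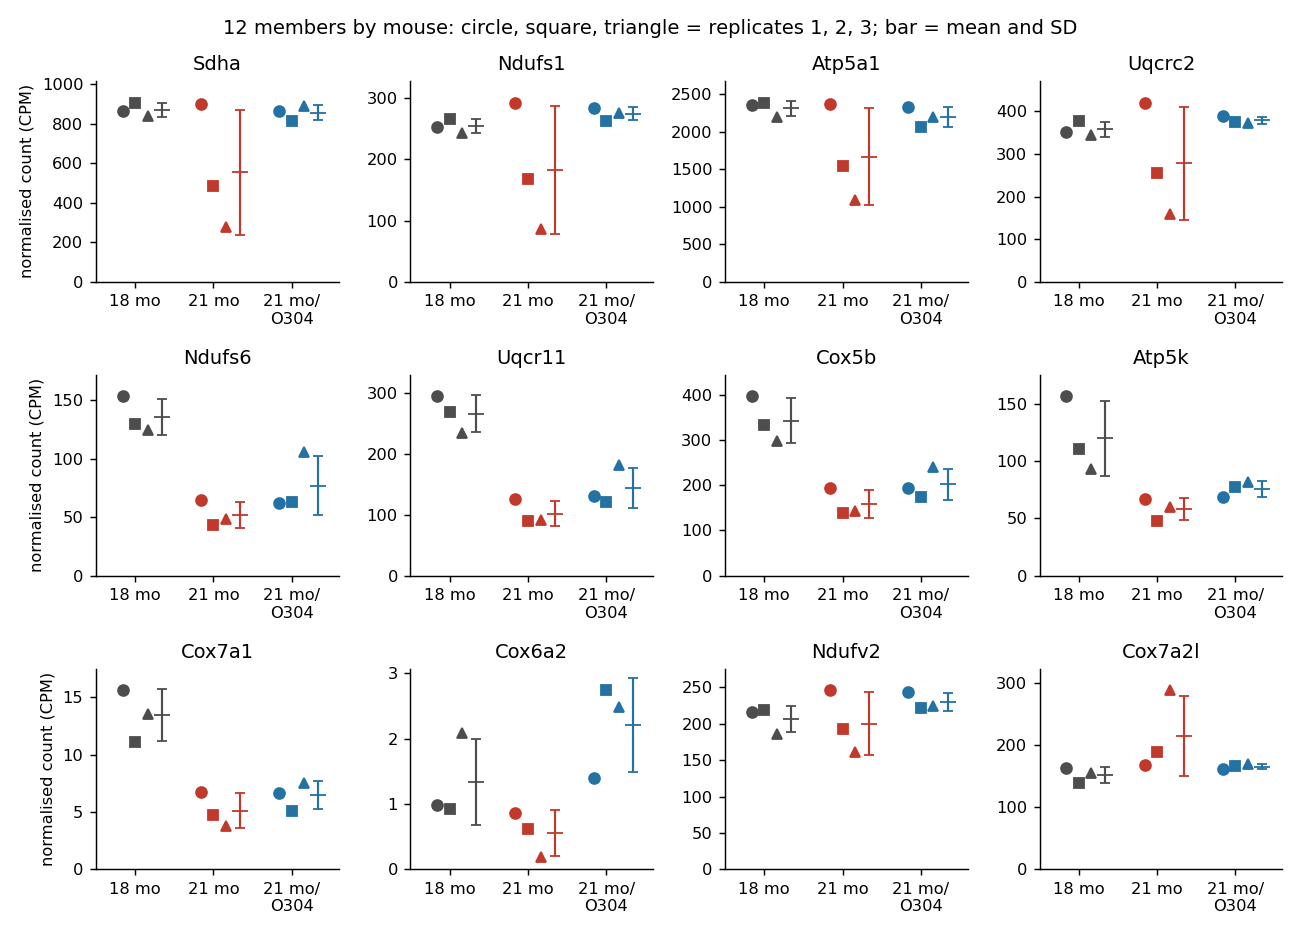
Normalised counts (CPM, vertical axes from 0) of 12 members in each mouse, with the mean and SD of each group of 3 beside the points. In the upper row replicate 1 of the 21 mo group sits within the 18 mo range for Sdha and Atp5a1 and above it for Ndufs1 and Uqcrc2, in the middle row (Ndufs6, Uqcr11, Cox5b, Atp5k) all 21 mo mice sit below the 18 mo mice, and the lower row shows Cox7a1, Cox6a2, Ndufv2 and Cox7a2l.

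The second comparison asked what differed under O304 at the same age. Against saline, 86 of the 91 tested members had a log2 fold change above 0 in the 21 mo/O304 mice, with a median of 0.35 beside -0.019 over all tested genes. The 84 subunits summed to 23778 ± 1642 CPM with O304, a range of 22017 to 25267 CPM. With saline they summed to 24107, 16894 and 13970 CPM in replicates 1 to 3. Replicate 1 of the saline group thus lay inside the O304 range, and only replicates 2 and 3 lay below it. Since this comparison shares the 21 mo libraries with the one before, a low value there raises the fold change here, and the directions are not independent. No member and no other gene (0%) passed an adjusted p of 0.05 in edgeR's test. DESeq2 called 1 member, Cox6a2, among 958 genes in all, and limma voom with sample quality weights called 68, all higher, among 6528. At an unadjusted p under 0.05 in edgeR's test 17 members were higher and none lower, beside 8.27% and 12.4% of all tested genes. For 14 members every O304 mouse lay above every saline mouse, beside 10.8% of all tested genes. The count of members without overlap was near the share for all genes. Without replicate 1 of the 21 mo group 46 members passed the adjusted threshold, all higher, among 3808 genes in all.

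By complex the median log2 fold change with O304 was 0.38 for complex I, 0.49 for complex II, 0.40 for complex III, 0.33 for complex IV and 0.28 for complex V. Of the 80 tested subunits, 78 had a fold change above 0, the exceptions being Cox4i2 and Cox6b2. At an unadjusted p under 0.05 in edgeR's test, 12 of 36 subunits of complex I, 2 of 9 of complex III and 1 of 15 of complex IV were higher. None of the 4 of complex II and the 16 of complex V were. Over all tested genes 8.27% were higher, a share at which few subunits of complexes II to V would be called. In complex I, Ndufb3 had the highest log2 fold change at 0.75 ± 0.24, from 73.5, 45.4 and 38.8 CPM with saline to 80.8, 76.6 and 107 CPM with O304. The O304 mice all lay above the saline mice. Ndufs6 had 0.57 ± 0.24, Ndufa13 0.54 ± 0.19, Ndufa1 0.68 ± 0.23 and Ndufv1 0.53 ± 0.26. Ndufs1 had 0.59 ± 0.35 with the groups overlapping, since replicate 1 of the saline group was the highest of all 9 mice. Ndufa7 was closest to 0, at 0.055 ± 0.12, and turned negative without replicate 1 of the O304 group. Complex II was led by Sdha at 0.63 ± 0.36 and Sdhc at 0.55 ± 0.27, with Sdhb at 0.43 ± 0.26 and Sdhd at 0.22 ± 0.19, and all 4 overlapped between the groups. In complex III the highest was Uqcrfs1, at 0.53 ± 0.28, while Uqcr11 had 0.51 ± 0.20 and Uqcr10 0.16 ± 0.16.

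Cox6a2 in complex IV had the highest log2 fold change of all members with O304, 2.00 ± 0.60, and an adjusted p of 0.176 in edgeR's test. It rested on few counts, 0.870, 0.625 and 0.183 CPM with saline and 1.40, 2.74 and 2.48 CPM with O304, and the 21 mo/O304 mice overlapped with the 18 mo mice. The 6 white adipocyte markers summed to 149, 10.1 and 123 CPM in replicates 1 to 3 with O304, against 1.47 to 6.09 CPM with saline and 0.123 to 8.60 CPM at 18 mo. Their sum was lowest in replicate 2 of the O304 group, where Cox6a2 was highest. The 6 skeletal muscle markers summed to 0.989, 0 and 0 CPM with O304 and 0.0669 to 0.962 CPM with saline. Only 1 of these 6 passed the filter on low counts and Myh4 was at 0 in every library, so these sums are near the limit of detection. The part of either list in the Cox6a2 value was not tested. Cox5b had 0.35 ± 0.20, Cox7a1 0.34 ± 0.27, Cox4i2 -0.87 ± 0.59 and Cox6b2 -0.59 ± 0.31. In complex V, Atp5b had 0.51 ± 0.32 and Atp5a1 0.40 ± 0.31, Atp5k had 0.39 ± 0.20 with no overlap, and Atp5e was nearest to 0 at 0.059 ± 0.15, a value that turned negative without replicate 2 of the 21 mo group.

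Set against the 18 mo mice, the third comparison, the O304 mice had lower levels for 71 of the 91 tested members, with a median log2 fold change of -0.19 beside 0.0028 over all tested genes. It shares libraries with both earlier comparisons. No member and no other gene (0%) passed an adjusted p of 0.05 in edgeR's test. DESeq2 called 3 members, Uqcr11, Cox7a1 and Cox5b, among 231 genes in all, and limma voom with sample quality weights called 6 among 415. At an unadjusted p under 0.05 in edgeR's test, 21 members were lower and none higher, beside 5.33% and 4.33% of all tested genes. Every O304 mouse lay below every 18 mo mouse for 40 members and above for 3, beside 13.3% and 13.2% of all tested genes. The standard errors and p-values of this comparison use a spread per gene shared by all 9 libraries, the 21 mo mice included. Over the 80 tested subunits the median SD of log2 CPM was 0.34 in the 21 mo mice, 0.11 at 18 mo and 0.12 with O304. With the 6 libraries compared alone no member passed, among 22 genes that did, and the smallest adjusted p of a member in edgeR's test was 0.054.

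Complexes I, III, IV and V each held members well below the 18 mo level with O304. Uqcr11 had a log2 fold change of -0.88 ± 0.21 and the smallest p, 0.00205, which was 0.323 after adjustment in edgeR's test. Cox7a1 had -1.06 ± 0.26, Ndufs6 -0.82 ± 0.24, Cox5b -0.76 ± 0.20, Atp5k -0.66 ± 0.20, Cox6a1 -0.61 ± 0.20 and Ndufa13 -0.59 ± 0.19, and all 6 had no overlap. Near the 18 mo level were Sdha at 870.0 ± 35.1 CPM at 18 mo and 857 ± 39.9 CPM with O304, and Uqcrfs1 at 509.7 ± 54.7 CPM and 508 ± 22.9 CPM. Ndufs1 had a log2 fold change of 0.11 ± 0.35, Atp5a1 -0.077 ± 0.31, Uqcrh 0.082 ± 0.15 and Atp5l 0.12 ± 0.16. Sdhb had -0.22 ± 0.26 and Sdhc 0.16 ± 0.27. Of the core subunits of complex I, Ndufs7 was lowest at -0.47 ± 0.20, and the highest in that complex was the accessory subunit Ndufb5 at 0.20 ± 0.18. Uqcr10 had -0.36 ± 0.16 and Atp5e -0.37 ± 0.15. By complex the medians were -0.24, -0.067, -0.16, -0.22 and -0.15 for I to V, and 12, 0, 3, 3 and 2 of their subunits were lower at an unadjusted p under 0.05 in edgeR's test. These were out of 36, 4, 9, 15 and 16 subunits, beside 5.33% of all tested genes.

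A list of 19 core subunits, made by hand, was set beside the other 61. It held the 7 core subunits of complex I, Sdha, Sdhb, Cyc1, Uqcrfs1, Uqcrc1, Uqcrc2, Atp5a1, Atp5b and Atp5c1, and from complex IV, whose catalytic core mitochondrial DNA encodes, the larger nuclear subunits Cox4i1, Cox5a and Cox5b. For these 19 the mean relative log2 stood at -0.084, -0.66 and -1.06 in the 21 mo mice, in that order, and -0.12, -0.25 and -0.11 in the 21 mo/O304 mice. For the other subunits it was -0.30, -0.68 and -0.82 and -0.29, -0.35 and -0.11. Replicate 1 of the 21 mo group and replicates 1 and 2 of the O304 group thus had the core nearer to the 18 mo level than the rest, and replicate 3 of the 21 mo group had it farther. Among the 21 mo mice all 19 core subunits were highest in replicate 1 and 17 were lowest in replicate 3, as were 55 and 45 of the other 61. With O304 against saline, none of the 19 core subunits and 15 of the other 61 were higher at an unadjusted p under 0.05 in edgeR's test, beside 8.27% of all tested genes, a share at which few of 19 would be called. The split was not tested.

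Gene length moved with this split. The other subunits had a median length of 1237 bases and the core a median of 2178 bases. Over the 22 tested members of up to 1000 bases the median relative log2 was -0.46, -0.91 and -0.97 in the 21 mo mice and -0.44, -0.54 and -0.21 in the O304 mice. Over the 34 members of more than 2000 bases it was -0.043, -0.58 and -1.01 and -0.065, -0.18 and -0.071. All 1241 tested genes of up to 1000 bases had medians of -0.075, -0.27 and 0.079 and -0.094, -0.072 and 0.065. The short members thus lay below short genes at large in all 6 of these mice. Across the 91 members, the Spearman correlation of length with the log2 fold change was 0.27 for 21 mo against 18 mo, 0.024 for O304 against saline and 0.37 for O304 against 18 mo, and over all tested genes it was 0.10, -0.063 and 0.069. Within the 19 core subunits the correlation was -0.16, 0.71 and 0.35 in the same comparisons, and within the other 61 it was 0.37, -0.17 and 0.36. The value of 0.024 for O304 against saline thus held opposite signs in the core and the rest. Genes are not replicates, and the points share libraries. In an alternative chosen after the data were seen, which took a curve of level against length out of each library, the members' medians were -0.44, 0.31 and -0.14. RNA integrity values are not given in the sources used here.

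**Figure D4:**
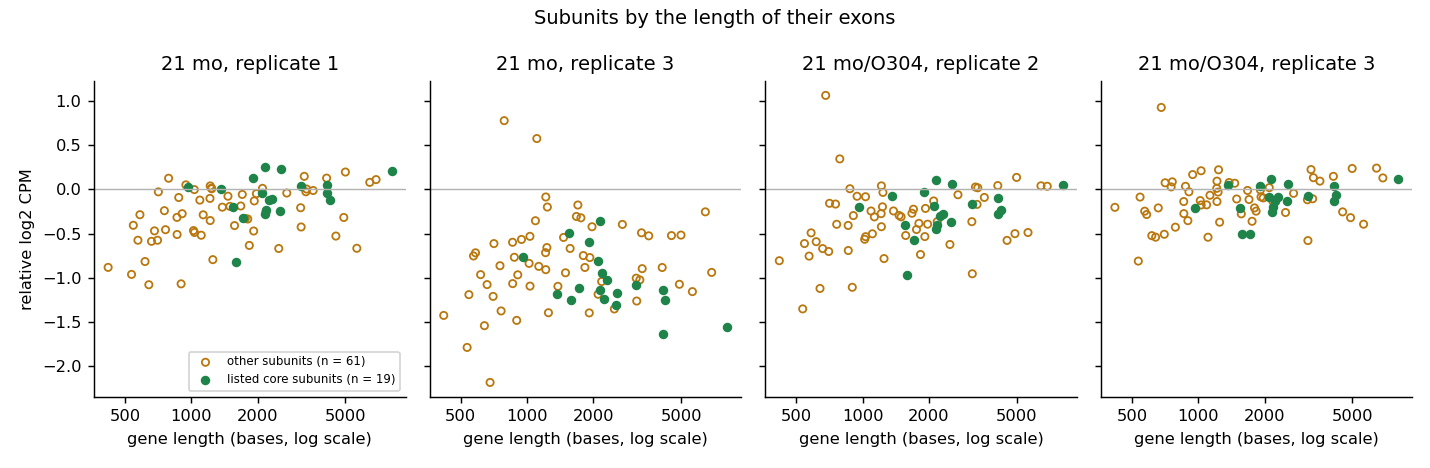
Relative log2 CPM (vertical axes) of the 80 tested subunits against gene length in bases (horizontal axes, log scale) in 2 of the 21 mo and 2 of the 21 mo/O304 mice; filled points are the 19 listed core subunits and open points the other 61. In replicate 1 of the 21 mo group most of the lowest points are short genes and the core genes lie closer to 0, Cox5b apart, while in replicate 3 of that group the core genes lie between -1.64 and -0.35.

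Cox7a2l, a related gene kept apart from the subunits and chosen after its values were seen, was the one member higher at 21 mo at an unadjusted p under 0.05 in edgeR's test. It had 164, 139 and 155 CPM in the 18 mo mice, 169, 189 and 289 CPM in the 21 mo mice and 161, 166 and 169 CPM in the 21 mo/O304 mice. All 21 mo mice lay above the 18 mo mice, with the highest value in replicate 3, where the subunits were lowest. The log2 fold change was 0.50 ± 0.20 at 21 mo, with an adjusted p of 0.159 in edgeR's test, and -0.38 ± 0.20 with O304 against saline. Ndufa4l2, a relative of Ndufa4 known for its response to low oxygen, had 5.39, 3.64 and 8.09 CPM, 4.42, 5.40 and 2.93 CPM and 2.04, 4.17 and 6.43 CPM in the 3 groups, which overlapped throughout.

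Assembly factors build the complexes from their parts and do not stay in them. Over the 8 Ndufaf genes the median log2 fold change was -0.36 at 21 mo, 0.28 with O304 against saline and -0.17 with O304 against 18 mo, and none passed an adjusted p of 0.05 in edgeR's test. At an unadjusted p under 0.05 4 of the 8 were lower at 21 mo and 2 of the 8 higher with O304 against saline, beside 12% and 8.27% of all tested genes. Ndufaf8, also chosen after its values were seen, was lowest at 21 mo, at -0.81 ± 0.17, and was 0.40 ± 0.17 with O304. Ndufaf4, chosen after its values were seen, had 44.7, 57.4 and 51.5 CPM, 58.5, 45.8 and 30.7 CPM and 68.4, 71.6 and 63.0 CPM, with all O304 mice above all others. Its log2 fold change was 0.59 ± 0.21 against saline and 0.40 ± 0.21 against 18 mo.

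Among 18 tested assembly factors of complex IV, 10 were lower and none higher at 21 mo at an unadjusted p under 0.05, their median log2 fold change being -0.36, and none passed the adjusted threshold. Over all tested genes 12% were lower and 14% higher at 21 mo, and 8.27% higher with O304 against saline, which the counts of these short lists are to be read against. Cox11, a copper chaperone, had 11.7, 14.2 and 10.7 CPM at 18 mo, 6.22, 3.86 and 3.66 CPM at 21 mo and 5.41, 4.83 and 6.18 CPM with O304. Both later groups lay wholly below the first, with log2 fold changes of -1.42 ± 0.25 and -1.16 ± 0.25 against 18 mo. Cox14 had -0.60 ± 0.14 and -0.47 ± 0.14, and Pet100 -1.09 ± 0.27 and -0.75 ± 0.27. The 6 other assembly factors of complex I had a median of -0.46 at 21 mo, with 3 lower at an unadjusted p under 0.05, among them Ecsit at -0.83 ± 0.23. With O304 against saline the median was 0.24 for the complex IV factors, with 4 higher at an unadjusted p under 0.05, among them Taco1 at 0.56 ± 0.21. It was 0.38 for the 6 of complex I, where Nubpl at 0.43 ± 0.17 and Ecsit at 0.57 ± 0.23 were higher. At 21 mo the median for the 6 factors of complex III was -0.19 with 1 lower, for the 3 of complex V -0.42 with 2 lower, and for the 4 of complex II -0.15 with 1 higher, Sdhaf2, at 0.32 ± 0.11. Cycs, the cytochrome c that shuttles electrons from complex III to complex IV, had 272, 415 and 351 CPM, 253, 196 and 130.1 CPM and 288, 294 and 368 CPM in the 3 groups, with log2 fold changes of -0.84 ± 0.26 at 21 mo and 0.72 ± 0.26 with O304 against saline. Atpif1, the inhibitor of ATP synthase, had -0.46 ± 0.20 at 21 mo.

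The 13 subunits encoded by mitochondrial DNA were also lowest in replicates 2 and 3 of the 21 mo group. Their mean relative log2 stood at -0.03, -0.72 and -1.32 in the 21 mo mice, in the same order, and 0.021, -0.20 and -0.20 in the O304 mice. The median log2 fold change was -0.33 at 21 mo and 0.55 with O304 against saline, with 12 of 13 lower and 13 of 13 higher, and 3 lower and 1 higher at an unadjusted p under 0.05, beside 12% and 8.27% of all tested genes. None passed the adjusted threshold. With O304 against 18 mo the median was 0.21, with 9 of 13 higher, and the list summed to 90846 to 94148 CPM at 18 mo, 53191 to 120478 CPM at 21 mo and 99388 to 113250.0 CPM with O304. The sum and median thus lay above the 18 mo level where the mean relative log2 lay near or below it. The complex III subunit mt-Cytb, named after its values were seen, had 21408, 19287 and 18783 CPM at 18 mo, 22560.4, 16262 and 8456 CPM at 21 mo and 23027, 21502 and 20095 CPM with O304. Only its values in replicates 2 and 3 of the 21 mo group were below the 18 mo range. The smallest p at 21 mo was that of mt-Co3, with a log2 fold change of -1.20 ± 0.20 and no overlap, at 531 ± 34.1 CPM at 18 mo and 231 ± 55.8 CPM at 21 mo. Counting could split reads of several of these genes with nuclear copies of mitochondrial DNA, so their levels are uncertain.

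**Figure D5:**
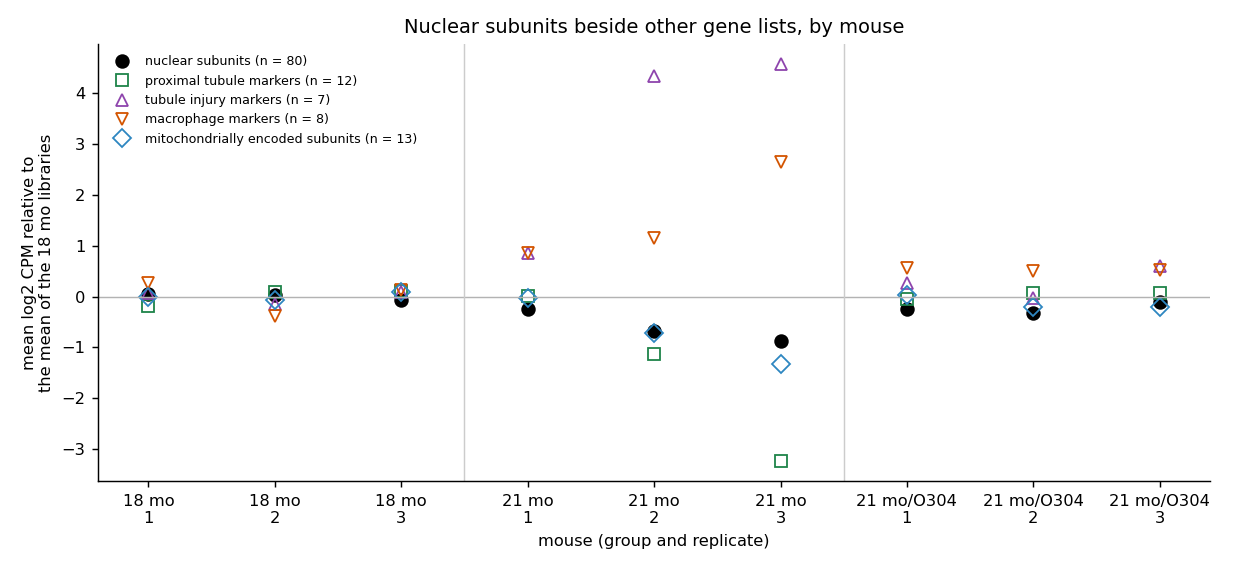
Mean relative log2 CPM (vertical axis) of the 80 tested nuclear subunits, the 13 mitochondrially encoded subunits and 3 marker lists in each of the 9 mice (horizontal axis). In replicates 2 and 3 of the 21 mo group both kinds of subunit and the proximal tubule markers lie below 0 and the injury and macrophage markers above it, with proximal tubule means of -1.13 and -3.24.

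Of 14 tested regulators of mitochondrial genes, 2 were lower and 1 higher at 21 mo at an unadjusted p under 0.05, their median log2 fold change being -0.027, and none passed the adjusted threshold. These counts were near those of all tested genes, 12% lower and 14% higher. Esrra, the nuclear receptor ERRα that binds promoters of respiratory genes, had 216, 234 and 214 CPM at 18 mo, 123, 91.5 and 70.0 CPM at 21 mo and 144, 136 and 139 CPM with O304. The 3 groups did not overlap, with the O304 mice between the others, and the log2 fold changes were -1.22 ± 0.19 at 21 mo, with an adjusted p of 0.0626 in edgeR's test, 0.56 ± 0.19 with O304 against saline and -0.66 ± 0.19 against 18 mo. Its coactivator Ppargc1b had -0.98 ± 0.28 at 21 mo and 0.73 ± 0.28 with O304 against saline. Pprc1, a relative of PGC-1, was the higher one at 0.59 ± 0.26. With O304 against saline 3 of the 14 were higher at an unadjusted p under 0.05 and none lower, beside 8.27% of all tested genes higher and 12.4% lower. Gabpa, part of NRF-2, a factor that binds respiratory gene promoters, had 43.9, 47.3 and 43.2 CPM, 49.0, 46.9 and 37.6 CPM and 58.3, 69.4 and 60.5 CPM, with all O304 mice above all others and a log2 fold change of 0.50 ± 0.13 against saline.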

How the data were processed

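Kidney RNA from 9 mice was sequenced by the authors as total RNA with a NEBNext Ultra library kit, with samples grouped by GEO's labels. The deposited table held read counts per gene and FPKM values, which the authors made with HISAT2 2.0.5 and featureCounts 1.5.0-p3 on GRCm38, per the submitters' processing notes. How strand and reads with several matches were treated is not given in the sources used here. The authors' own columns of group means, fold changes and p-values were not used.

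Counts were tested with edgeR 4.0.16 in R 4.3.3 (quasi-likelihood, TMM factors, filterByExpr set to 10 counts and 15 in total, 1 mean per group, 6 residual degrees of freedom), with Benjamini-Hochberg adjustment over all 15902 tested genes. Standard errors are the log2 fold change over the root of F, and relative log2 values use a prior count of 2. The code was tested on simulated data. Alternatives were DESeq2 1.42.0, limma 3.58.1 (voom with sample quality weights, and trend on log2(FPKM + 1) for genes of mean FPKM of at least 0.5), other normalizations and filters, a replicate block, the 6 libraries compared alone, each library left out, and, chosen after seeing the data, an offset for gene length (loess span 0.5). No set test was run. Single values of 3 against 3 mice cannot reach an exact permutation p below 0.1.

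Named were, by complex and comparison, the members with the largest and smallest fold change and the smallest p, the core subunits, the tissue-restricted isoforms with their partners, the highest FPKM, untested members, and up to 3 genes of other lists by p. The members and lists were chosen with earlier results of these data known. Library totals of 15636378 to 18396725 counts set the precision of single values. Promoter and protein sequences were not analysed here, and 1 member is not reported singly here.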

Additional observations from a re-analysis of the deposited data

How the results depend on the processing

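With edgeR no member passed an adjusted p of 0.05 in any comparison, and this count depended on the tool, the filter and single libraries. At 21 mo against 18 mo it was 37 with DESeq2, 80 with limma voom and sample quality weights, 10 with every gene of at least 1 count, and 0 to 64 without 1 library. The 64 came without replicate 1 of the 21 mo group, and without replicate 3 there was 1. For O304 against saline it was 1 with DESeq2, 68 with voom and 0 to 46 without 1 library, and for O304 against 18 mo 3, 6 and 0. Voom gave the 21 mo replicates 1, 2 and 3 weights of 0.223, 9.11 and 0.132, so its calls lean on replicate 2. The members lower at 21 mo at an unadjusted p under 0.05, 48 in all, were 79 with voom and 35 to 77 without 1 library, the 77 again without replicate 1 of the 21 mo group. Those higher with O304 against saline, 17, were 74 with voom, 8 with the 6 libraries alone and 2 to 68 without 1 library, with 68 where replicate 1 of the 21 mo mice was left out, 4 for replicate 2 and 8 for replicate 3, 11 for replicate 2 of the 18 mo mice, and 8 and 2 for replicates 1 and 3 of the O304 mice. Those lower with O304 against 18 mo, 21, were 32, 36 and 8 to 27, with 12 and 10 when replicates 1 and 2 of the 18 mo mice were left out and 9 and 8 for replicates 1 and 2 of the O304 mice. Over all genes the calls at 21 mo were 3 with edgeR, 576 with every gene of at least 1 count, 2262 with DESeq2 and 8409 with voom, for O304 against saline 0, 17, 958 and 6528, and for O304 against 18 mo 0, 0, 231 and 415, with 22 in the 6 libraries alone. The causes of these differences were not tested.

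The medians kept their sign throughout. Without 1 library the members' median ran from -0.73 to -0.36 at 21 mo, from 0.21 to 0.53 for O304 against saline and from -0.22 to -0.12 for O304 against 18 mo. In the last comparison the complex IV median of -0.22 was -0.12 with every gene of at least 1 count and -0.31 to -0.11 without 1 library. At 21 mo Ndufv2, which ran from -0.21 to 0.07 without 1 library, turned to 0.070 without replicate 3 of the 21 mo group and to 0.021 with the offset for gene length, an alternative chosen after seeing the data, which also turned Uqcrh to 0.013 and Atp5mpl to 0.037. For O304 against saline Ndufa7 turned to -0.016 without replicate 1 of the O304 group and Atp5e to -0.033 without replicate 2 of the 21 mo group, in ranges of -0.016 to 0.11 and -0.033 to 0.12. Deviations of same-numbered mice correlated at -0.13 to 0.17. Differently numbered mice were not compared, so these values cannot decide whether replicate numbers pair the mice. With a replicate block the members' medians were -0.53, 0.37 and -0.19, and it made 0 calls among them.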
